A study of Mus musculus with 2 samples.

Results

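The mouse lincRNA loci probes are 691 probes on the Arraystar Mouse LncRNA Microarray v2.0, each printed as 1 spot and named mouselincRNA with a locus number and a strand sign. They were chosen by that name among the 61194 spots that are not array controls. They cover 351 loci numbered from 2 to 1673, with 343 probes for the plus strand and 348 for the minus strand, and 340 loci have a probe for each strand. LncRNAs were profiled in plasma of male C57BL/6 mice aged 8 to 10 weeks, pooled into 1 sham sample and 1 IRI sample. IRI stands for ischemia/reperfusion injury, here 60 minutes of clamping of the vessels to 70% of the liver with 6 hours of reperfusion after it, and in sham mice the operation was done without the clamp. Each group was 1 array, so there was no replicate and no test, and the pool is given as 5 to 8 mice in the methods but as 3 mice in the description of the series.

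Long intergenic noncoding RNAs are transcribed from DNA between protein-coding genes and have no long open reading frame. Many are transcribed at low level and in few cell types, and some act in the nucleus on chromatin or on neighbouring genes. In plasma, RNA is found outside cells in vesicles, bound to protein or released from damaged cells, and the plasma has no cells of its own to which a transcript could be assigned. A pair of probes, one per strand, lets an array report transcription of a locus when its direction is not known. No function of these loci was given in the sources used here, and 0 of the 351 loci were found among RefSeq gene names.

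The member followed up by real time PCR in the study was mouselincRNA0842-, which also had the largest rise in one of the deposited versions of the data. The primers for it are shown because they are the sequence by which this transcript can be found, and the sequences of the array probes themselves were not used here.
sense primer: cctcatccttgtccagccta
antisense primer: agtggaggtctcaggagcaa
Each primer has 20 bases, of which 55.0% are G or C. The annotation given for the probe places the locus at chr2:27626136-27637286, between genes, and lists the plus strand although the probe name ends in a minus sign. The genome build was taken from the header of the arrays, which names mm9 (NCBI37). The annotation of mouselincRNA0366+ gives chr13:16843392-16854392 and that of mouselincRNA1224+ gives chr5:118884604-118898429, both intergenic. These are the 3 members for which a location was at hand.

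The value of a spot is its processed signal, an intensity in arbitrary units from which the scanner software subtracted the background. A spot is called well above background by a flag of that software. IRI plasma was deposited in 2 versions, a scanner file and a column of the series matrix, and their values were equal at 1 of 62513 spots and at 0 members, whereas the sham column equals the sham file at all 691 members. The series matrix has no flags, so a member counted as above background there at a signal of 16.67 or more, the lowest signal flagged well above background on the sham array. Over the members, the rank correlation was 0.543 between sham and the IRI scanner file, 0.723 between sham and the IRI column of the matrix, and 0.710 between the IRI versions. Over all 61194 spots that are not array controls these were 0.405, 0.738 and 0.454. Across the array the IRI versions were thus less alike than sham and the matrix. The deposit itself does not name the intended version, so each result is given for both. The fold changes listed by the study were not used to choose between them. Among 15 searched marker genes of hepatocytes, red cells, platelets and neutrophils, 1 was found by name (Tfrc), and the cells behind the plasma RNA could not be described. On this platform, less RNA in a pool and fewer cells releasing it cannot be told apart.

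A minority of the members was seen in each data column. Well above background were 247 of 691 members (35.7%) on sham and 331 (47.9%) in the IRI scanner file, and in the IRI column of the matrix 241 (34.9%) stood at or above the floor. The median signals of all members were 10.1, 11.4 and 6.43. Of 1217 human lincRNA probes on the same arrays 33.5%, 47.5% and 33.4% passed, close to the members' shares. Of 3457 lincRNA exon probes 41.8%, 63.6% and 41.6% passed. Over all 59994 probes that are not controls the shares were 41.2%, 69.6% and 36.9%, so that the members' share lay below that of the array in each column, most so in the IRI scanner file.
The members' shares are to be read beside 1200 negative-control spots of the array design, which belong to 20 probes. Of these spots 32.3% passed on sham, 22.7% in the IRI scanner file and 25.5% in the matrix. The members' share on sham was close to that of these controls, and a dim member that passes the flag was not separated from them. The 308 negative-control spots placed by Agilent gave 0, 1 and 1 spots above background. The brightest spot of the design controls reached 177 on sham and 331 in the IRI scanner file. In the matrix it stood at 19000, with a median of 2.83 over its own probe, far above its copies.

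The calls overlapped in part between the arrays. A group of 169 members (24.5%) passed on sham and in both IRI versions, where 28.1% of all probes did, and 289 members passed in none. Another 46 members (6.66%) passed in both IRI versions and not on sham, where 6.25% of all probes did. A set of 45 (6.51%) passed on sham and in neither IRI version, where 4.21% of all probes did. The IRI scanner file alone carried 99 members, the matrix alone 10. A further 17 passed on sham and in the scanner file, and 16 on sham and in the matrix. For these last counts and for the 289 members, the share over all probes was not counted.
Detection was similar on the strands. On sham 36.2% of the plus probes and 35.3% of the minus probes passed, in the IRI scanner file 46.4% and 49.4%, and in the matrix 33.5% and 36.2%. In steps of 200 locus numbers, the sham share ran from 27.9% at numbers 1601 to 1800 to 44.6% at 601 to 800. The same range of 601 to 800 was the highest in the IRI scanner file (59.0%) and in the matrix (43.4%).

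A small set of loci was bright. Signals above 1000 were found for 33 members on sham, 16 in the IRI scanner file and 41 in the matrix, and 14 members exceeded 1000 in all of these. The 14 comprised 8 minus and 6 plus probes of 14 different loci, and the limit of 1000 was chosen after the values were seen.
The brightest of them, mouselincRNA1188-, had signals of 74017 on sham, 39408 in the IRI scanner file and 150008 in the matrix. It stood above 99.9% of spots on sham, above 98.2% in the scanner file and above 99.99% in the matrix. Its partner mouselincRNA1188+ was at 4.04, 3.21 and 3.92, none of them above background.
The same one-sided picture held for mouselincRNA1606-, mouselincRNA0158- and mouselincRNA1267-, the loci with the widest gap between strands on sham among those with both strands above background. mouselincRNA1606- had 56233, 10694 and 41741, against 27.3, 2.53 and 2.75 for its plus probe. mouselincRNA0158- had 46109, 6404 and 28514, against 27.3, 2.53 and 10.1. mouselincRNA1267- had 17992, 8252 and 34743, against 28.7, 5.09 and 2.92.
In each of these loci the plus probe passed on the sham array alone. mouselincRNA0305- was also a minus probe, at 21405, 9601 and 47923, with its plus probe at 25.0, 2.79 and 4.47. Bright plus probes included mouselincRNA0118+ at 8411, 1164 and 30198, with 3.69, 6.96 and 2.48 on the minus strand. mouselincRNA0538+ stood at 6490, 2386 and 17653 against 4.10, 2.53 and 2.94.
Of the 14 partner probes, 6 were well above background on sham, and none of them belonged to the 14. In 2 of these loci both strands were above 1000 on sham. In locus 0543 the minus probe had 9500, 1477 and 13499 and the plus probe had 2187, 382 and 3374. In locus 0706 the strands were nearly level on sham, with 3022 for plus and 2616 for minus. The plus probe of that locus was then 2937 in the scanner file and 3094 in the matrix, whereas the minus probe was 222 and 5526.

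**Figure D1:**
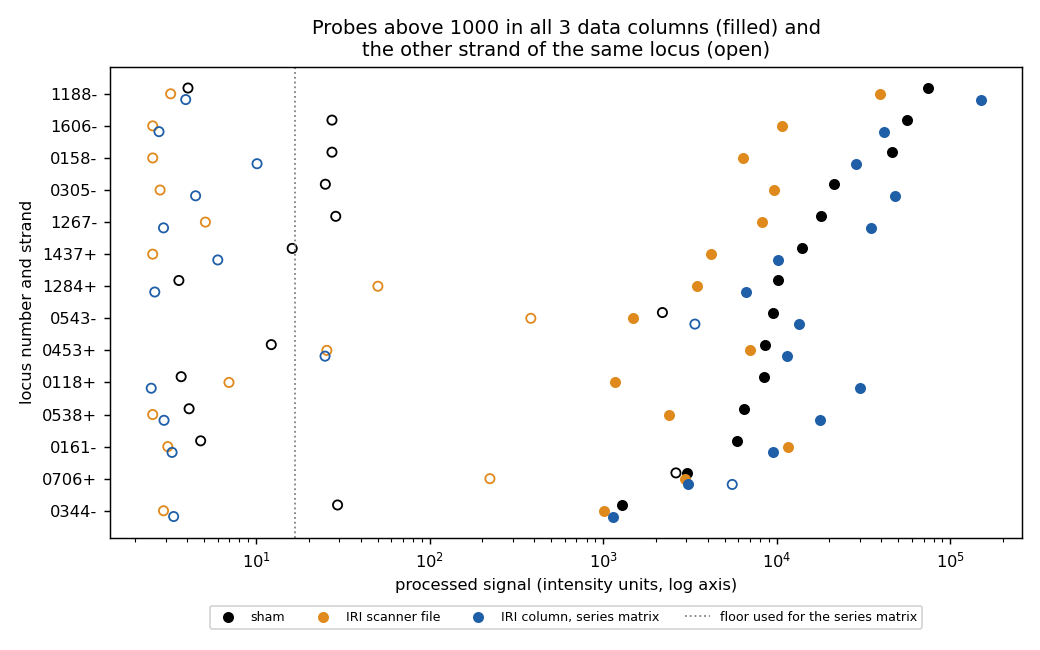
Processed signal (log axis, intensity units) of the 14 mouse lincRNA probes above 1000 on sham, in the IRI scanner file and in the IRI column of the matrix. Filled points are the bright probe, open points the other strand of its locus, and in all but loci 0543 and 0706 the open points lie more than 10-fold to the left of the filled ones.

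Taken over all 340 loci with 2 probes, dim ones included, the brightness of one strand showed little relation to that of the other. The rank correlation of plus with minus signal was 0.028 on sham, 0.001 in the IRI scanner file and -0.007 in the matrix, as a description over loci that share an array. Over the loci with both strands passing it was -0.077 on sham, 0.337 in the scanner file and 0.126 in the matrix. On sham both strands passed in 46 loci, the plus strand alone in 77, the minus strand alone in 74, and neither in 143. In the IRI scanner file these counts were 78, 80, 93 and 89, and in the matrix 41, 73, 83 and 143.
A minus probe passed on sham in 37.4% of loci whose plus probe passed and in 34.1% of the others. The corresponding shares were 49.4% and 51.1% in the scanner file and 36.0% and 36.7% in the matrix. The human lincRNA loci, with 608 pairs, gave rank correlations of 0.051, 0.063 and 0.081.
Where both strands passed on sham, the median gap between them was 4.25-fold, 14 of the 46 loci differed by over 10-fold and 16 by under 2-fold. The minus probe was the brighter one in 30 of these loci and the plus probe in 16. In the scanner file the split was 38 and 40 with a median gap of 1.98-fold, and in the matrix 21 and 20 with 3.31-fold. The probes of a locus are different probes, so these gaps do not rank the strands of a transcript.

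**Figure D2:**
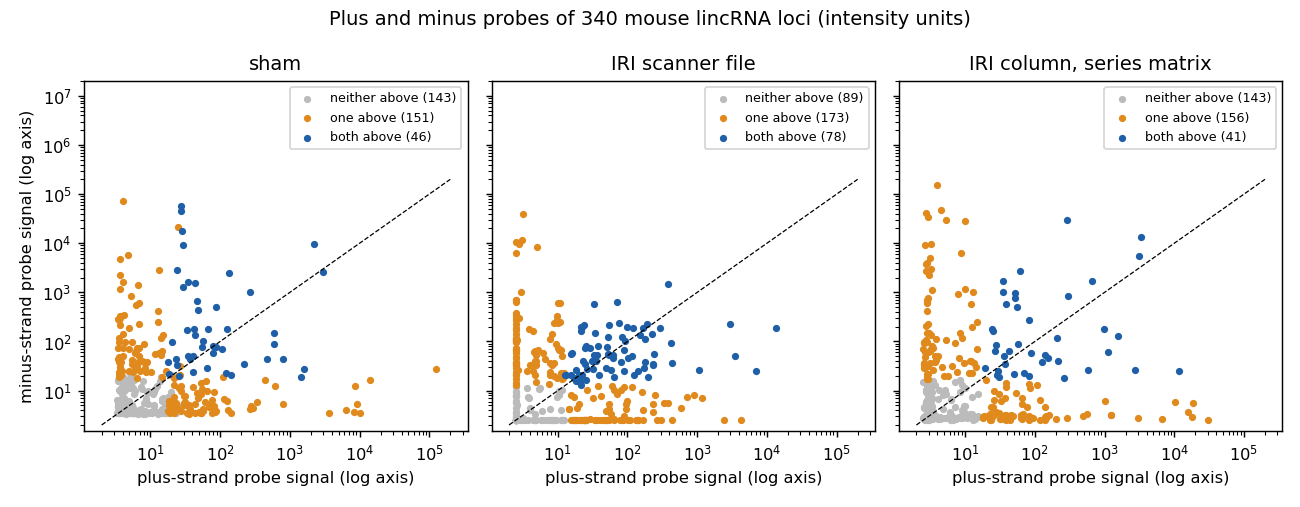
Signal of the minus-strand probe against the plus-strand probe of 340 mouse lincRNA loci (log axes, intensity units) on sham, in the IRI scanner file and in the IRI column of the matrix. Colours give whether neither, one or both probes passed, the dashed line marks equal signals, and the points spread along both axes rather than along the line.

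IRI was compared with sham for the members detected on both arrays, that is positive and significant, well above background and without an outlier flag. Signals were quantile normalized on the log2 scale, a step that gives both arrays the same distribution. Fold changes of 1.5 or more were counted as higher and of 0.7 or less as lower, the thresholds in the methods of the study. Those methods do not give the formula of the fold, which here is the ratio of normalized signals. A ratio of the log2 signals would give 2 higher and 0 lower in the matrix, and 1 and 99 in the scanner files. In the scanner files 185 members (26.8%) were detected, and in the matrix 184 (26.6%). Of these 168 were detected in both versions.
With the scanner files, most detected members were lower in IRI plasma. The count was 1 higher, 159 lower and 25 between the thresholds, where 19.1% of all 21294 detected probes were higher and 69.7% lower. The median log2 fold change of the members was -2.83, with quartiles of -4.17 and -1.27, and that of all detected probes was -1.78. The 112 detected negative-control spots of the design gave 0 higher and 97 lower (86.6%), with a median of -2.85 (-0.56 without normalization). After normalization the members' median over all sham signals was close to that of these controls. Of the 112 spots, 60 were copies of the control probe MM9NEGATIVE020, at 68.3 to 119 on sham. Members below 100 on sham had a median of -1.42 (0.50 without normalization), higher than that of these controls. No comparison at matched brightness was made. The scaling moved the members' balance. Without normalization the members gave 56 higher and 88 lower with a median of -0.33. Of all detected probes 49.3% were then higher and 31.4% lower, with a median of 0.55. Rises were thus 0.625% of the calls with normalization and 38.9% without it.
With the matrix, the balance was the opposite. The count was 74 higher, 25 lower and 85 between, where 32.6% of all 17709 detected probes were higher and 19.9% lower. The median log2 fold change was 0.35, with quartiles of -0.06 and 0.96, against 0.21 for all detected probes. Without normalization it was 86 higher and 23 lower with a median of 0.53, beside 39.6% and 19.0% of all probes and a median of 0.38. The 168 detected negative-control spots gave 29 higher and 58 lower in the matrix, with a median of -0.27 (-0.36 without normalization). They included all 60 copies of MM9NEGATIVE017 and all 60 of MM9NEGATIVE020.
Taken against the median of all detected probes, the members' median differed by -1.05 on the log2 scale in the scanner files with normalization and by -0.88 without it. In the matrix it differed by 0.14 with normalization and by 0.15 without it. For human lincRNA probes these differences after normalization were -0.64 in the scanner files and 0.11 in the matrix, and for lincRNA exon probes -0.86 and 0.00. The probes shared the arrays, and no test of these differences was made.

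**Figure D3:**
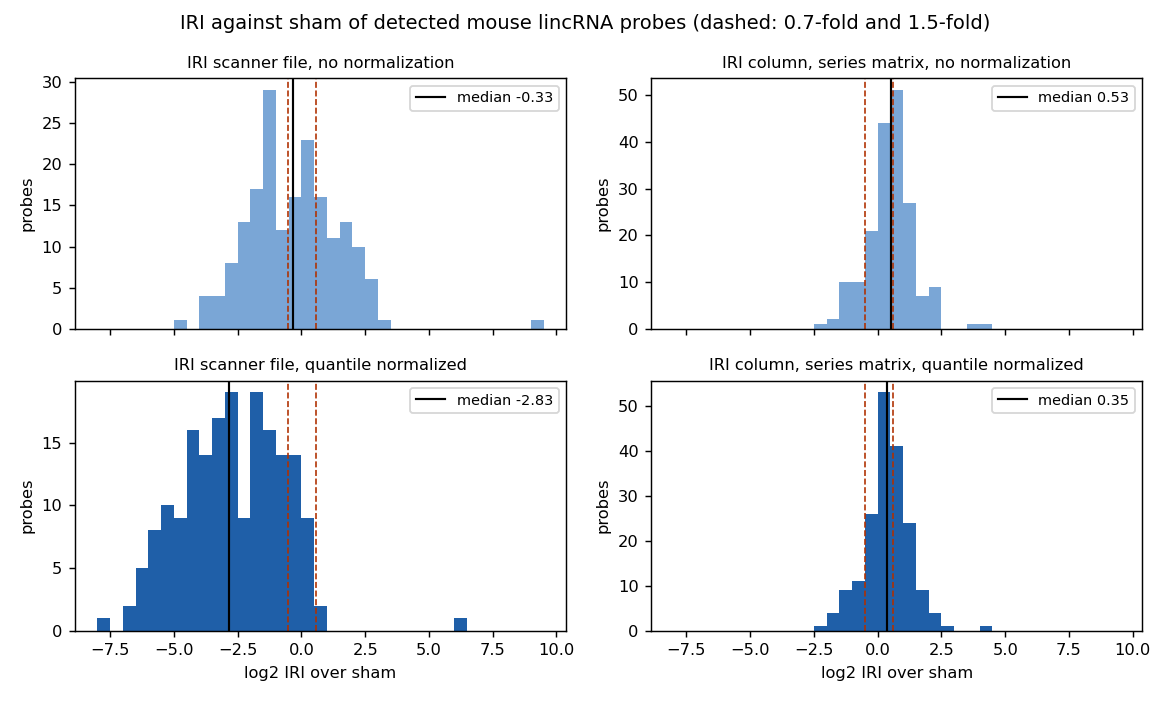
Number of detected mouse lincRNA probes by log2 IRI over sham in bins of 0.5, for the scanner files (185 probes, left) and the series matrix (184 probes, right), before (top) and after (bottom) quantile normalization. Black lines are the medians and dashed lines the thresholds, and the median at left shifts from -0.33 to -2.83 with normalization while that at right stays above 0.

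The change moved with brightness in the scanner files. Members with sham signals below 100 had a median log2 fold change of -1.42 (n = 106), those of 100 to 1000 of -3.88 (n = 47) and those of 1000 or more of -5.36 (n = 32). In the matrix the medians were 0.53, 0.13 and 0.10 over 105, 47 and 32 members. Without normalization the medians were 0.50, -1.30 and -2.41 in the scanner files, and 0.40, 0.64 and 0.76 in the matrix, so that the order in the matrix turned with the scaling. The sham signal is part of both measures, and its part in the trend was not tested. Detection also asked the IRI signal to pass, at 12.67 or more in the scanner file. The fall that a dim member could show was thereby limited, and the part of this in the trend was not tested. The plus probes had a median of -1.95 and the minus probes of -3.11 in the scanner files, and 0.37 and 0.31 in the matrix.
In the scanner files all 32 members with sham signals of 1000 or more were lower, and 45 of the 47 at 100 to 1000. The shares over all probes at these sham signals were not counted. The 14 members above 1000 throughout shared the fall in the scanner files and moved apart in the matrix. All 14 were lower in the scanner files, from -5.94 to -2.26 on the log2 scale, and without normalization 1 of them was above 0 (mouselincRNA0161-, with 5855 on sham and 11646 in IRI). In the matrix 4 of them were higher and 6 lower, from -1.22 to 1.29 with a median of -0.11. Without normalization 6 were higher and 2 lower in the matrix, with a median of 0.47.

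**Figure D4:**
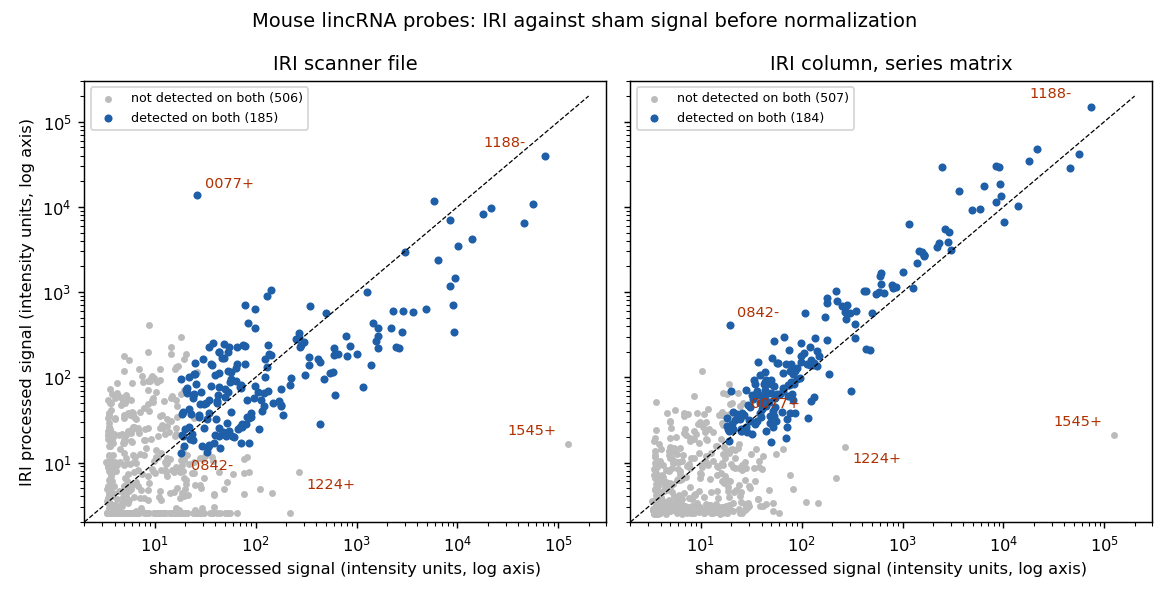
IRI against sham processed signal of the 691 mouse lincRNA probes before normalization (log axes, intensity units), for the IRI scanner file (left) and the IRI column of the matrix (right). Blue points were detected on both arrays, grey points were not, the dashed line marks equal signals, and mouselincRNA0842- lies above the line at 415 in the matrix and below it at 6.67 in the scanner file.

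The versions put few members past a threshold on the same side. Of the 168 members detected in both, 1 was higher in both, 21 were lower in both, and 55 were lower in the scanner files and higher in the matrix. Over all 16843 probes detected in both, 6.16% were higher in both versions and 16.0% lower. Without normalization 21 members were higher in both versions and 11 lower, where 18.8% and 7.20% of all probes were, and 51 members were past opposite thresholds. For the members past opposite thresholds, the share over all probes was not counted, with or without normalization.
The sham signals are shared by the versions, so this is no independent check. The 11 were all among the 21 members lower in both after normalization.

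Among the members detected on both arrays, mouselincRNA0570- had the largest fall in the matrix. Its signals were 307 on sham, 107 in the IRI scanner file and 68.9 in the matrix, 19.2-fold and 5.26-fold lower after normalization. Without normalization its log2 changes were -1.52 and -2.16, lower on either scale.
Next among these detected members were mouselincRNA0364- with 115 on sham, 40.0 in the scanner file and 33.1 in the matrix, and mouselincRNA1623+ with 474, 96.9 and 210. mouselincRNA0750- had 69.5, 26.1 and 19.2, and its plus probe had 4.92, 18.4 and 30.5, not well above background on sham. mouselincRNA0939+ had 438, 152 and 213, and its minus probe had 16.1, 133 and 39.3, at least 2.20-fold and 3.30-fold higher in IRI after normalization, and its bound in the matrix was 2.36-fold without it.
These 5 members were below sham in both versions with and without normalization. Other members of this kind were mouselincRNA0484+ with 86.4, 33.4 and 38.0, mouselincRNA1559- with 72.2, 16.8 and 32.2, and mouselincRNA0892- with 187, 36.5 and 109. The last 3 were chosen after their values were seen.

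Members higher in both versions were mostly dim on sham. mouselincRNA0077+ was the 1 member past the upper threshold in both versions after normalization, with 26.5 on sham, 13677 in the scanner file and 35.7 in the matrix. The rise was 81.3-fold in the scanner files and 1.77-fold in the matrix. Without normalization the log2 changes were 9.01 and 0.43, and the change in the matrix then lay between the thresholds. A spot beside mouselincRNA0077+ on the array reached 110000 in the scanner file, and the part of that spot in the result was not tested.
mouselincRNA0768+ had 37.2 on sham, 141 in the scanner file and 153 in the matrix, and mouselincRNA0513+ had 53.0, 197 and 264. Their IRI signals differed by less than 1.5-fold between the versions. In the matrix they were 4.28-fold and 4.55-fold higher, and without normalization both exceeded sham in both versions by 1.89 or more on the log2 scale, but after normalization of the scanner files mouselincRNA0768+ was at -0.23, between the thresholds, and mouselincRNA0513+ at -0.53, past the lower one.
Other members higher in both without normalization were mouselincRNA1266+ with 34.4, 229 and 84.0, and mouselincRNA1223- with 20.8, 75.5 and 39.7. In the normalized scanner files these lay between the thresholds, at 0.48 and 0.06. These were chosen after their values were seen.

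Opposite changes of the strands of a locus were seen in a few cases. In the matrix 27 loci had both strands detected, of which 5 had both higher, 0 both lower and 5 opposite, and the rank correlation of the strands' log2 fold changes was -0.13. In the scanner files 24 of 30 such loci had both lower, 0 were opposite, and the correlation was -0.03.
Of 24 loci with both strands detected in both versions, 2 changed in opposite directions in both without normalization. In locus 1623 the plus probe was at 474, 96.9 and 210 and the minus probe at 43.1, 196 and 116, so the strand that was the brighter on sham became the dimmer one in the scanner file. In locus 1478 the plus probe was at 78.9, 235 and 142 and the minus probe at 82.8, 34.3 and 53.7, from level strands on sham to more than 2-fold apart in both IRI versions. After normalization both loci were still opposite in the matrix, and neither was in the scanner files.

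Members seen in one group alone have a bound in place of a fold change. The bound sets the bright group against the higher of the dim signal and a limit, both after quantile normalization. The limit is the lowest signal well above background on the dim array, or for the matrix the floor of 16.67 taken from sham. No bound is given where the ratio is under 1. Since normalization moves the signals, a bound can exceed the ratio of the signals as deposited, and the bound without normalization is given beside it. In the scanner files 47 members had such a bound above sham, with a median of 1.55 and a highest of 5.49, and 61 below sham, with a median of 7.47 and a highest of 107. In the matrix 56 stood above sham, with a median of 2.52 and a highest of 8.68, and 40 below it, with a median of 1.60 and a highest of 16.0. Without normalization the scanner files gave 135 bounds above sham with a median of 2.13 and 61 below it with a median of 2.45, and the matrix 55 with 1.80 and 62 with 1.67. Of all 59994 probes, 11272 had a bound above sham (median 3.88) and 3383 below it (8.54) in the normalized scanner files. In the normalized matrix these were 4433 (2.26) and 5269 (1.74). Without normalization they were 18600 (4.78) and 3383 (2.72) in the scanner files, and 4329 (1.56) and 6976 (1.99) in the matrix.
The largest bound below sham was that of mouselincRNA1224+, with 272 on sham, 7.66 in the scanner file and 15.3 in the matrix. After normalization it was lower in IRI by at least 107-fold with the scanner files and at least 16.0-fold with the matrix, and without normalization by at least 21.4-fold and 16.3-fold. Its minus probe was not well above background on sham or in the scanner file, with 4.14 and 2.53, and was at 3.11 in the matrix. mouselincRNA1616- had 219, 2.53 and 6.58, at least 85.2-fold and 12.7-fold lower after normalization and at least 17.3-fold and 13.1-fold without it. mouselincRNA0482+ had 144, 4.38 and 3.38, at least 53.5-fold and 7.90-fold lower after normalization and at least 11.3-fold and 8.62-fold without it. For these members the scanner bounds moved with the scaling more than those of the matrix.
In the other direction, mouselincRNA1250- had 18.2 on sham, 294 in the scanner file and 63.9 in the matrix, at least 3.74-fold and 4.57-fold higher after normalization and at least 16.1-fold and 3.51-fold without it. mouselincRNA1631+ had 5.56, 160 and 41.4, at least 2.55-fold and 3.45-fold higher after normalization and at least 9.59-fold and 2.48-fold without it. Of the 46 members passing in both IRI versions and not on sham, 14 had a bound of 1.5-fold or more in both after normalization (30.4%, against 41.0% of all 3749 such probes) and 23 without it (against 44.4% of all such probes). Of the 45 passing on sham alone, 19 had a bound at 0.7-fold or less in both after normalization (42.2%, against 48.2% of all 2526 such probes) and 36 without it (80.0% against 77.1%). Except for mouselincRNA1224+, the members of this paragraph were chosen after their values were seen.

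Several members with a large fold in one version differed between the versions. mouselincRNA0002+ had 9217 on sham, 339 in the scanner file and 18811 in the matrix, 182-fold lower in one and at a log2 fold change of 0.47 in the other. mouselincRNA0522- had 2482, 229 and 29242, with a rise of 7.83-fold in the matrix and a log2 fold change of -6.27 in the scanner files. The plus probe of its locus had 135, 189 and 293.
Of the same kind were mouselincRNA0970- with 9115, 711 and 29008, mouselincRNA0133- with 1162, 77.1 and 6280, and mouselincRNA0544- with 438, 28.5 and 1035. In each of these the scanner file lay below sham and the matrix above it. mouselincRNA0366+ went from 20.0 on sham to 24.6 in the scanner file and 68.7 in the matrix, a 4.34-fold rise in the matrix and a log2 fold change of -1.28 in the scanner files, or 0.30 without normalization.

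mouselincRNA0842- had 19.4 on sham, 6.67 in the scanner file and 415 in the matrix, and its locus has no plus probe on the array. In the matrix it was 22.5-fold higher in IRI after normalization, the largest rise of the 184 detected members, and the ratio of its normalized log2 signals was 2.14. With the scanner files, where its IRI spot was not well above background, it was lower by at least 4.19-fold after normalization and by at least 1.53-fold without it. The matrix value put it above 92.3% of spots, whereas on sham it was above 58.2%.
Several spots beside it on the array were also far brighter in the matrix than on sham. Among its 6 nearest spots, 3 were 16-fold or more higher in the matrix than on sham, whereas 52 of 62513 spots (0.0832%) of the array were, and no other member had more than 1 such spot beside it. Within 100 µm, 5 of 30 spots were at 250 or more in the matrix and under 10 on sham, against 10 spots (0.016%) on the whole array. A copy of an Actb probe 62.4 µm away read 351 in the matrix where 19 other copies read 33.6 to 49.7, and on sham the same copies read 63.5 and 57.1 to 89.3. A copy of a spike-in control probe 36.9 µm away read 271 where 34 other copies read 2.51 to 33.1. The other probes with copies near read as their copies did in the matrix, a control probe 73.0 µm away at 2.72 against a median of 2.81 and a spike-in probe 97.3 µm away at 11500 against 10300 to 14800.
These distances and limits were chosen after the values were seen, and their part in the rise of mouselincRNA0842- was not tested. Without this member the matrix count was 73 higher and 25 lower.

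**Figure D5:**
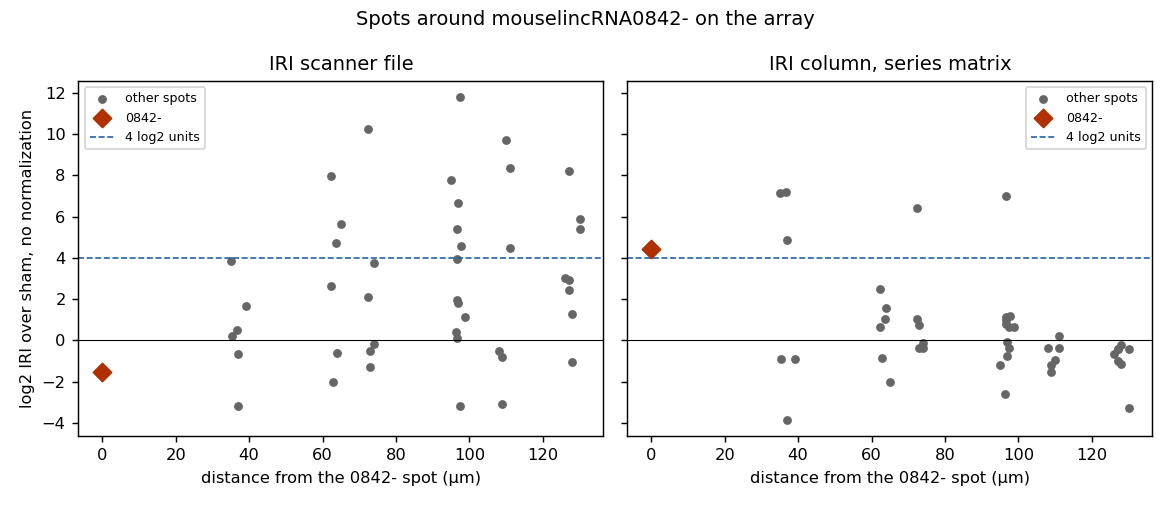
Log2 IRI over sham without normalization of the spots around mouselincRNA0842- by their distance in µm, for the IRI scanner file (left) and the IRI column of the matrix (right). In the matrix, 3 of the 6 nearest spots lie above the dashed line at 4 log2 units, or 16-fold, together with mouselincRNA0842- itself, and in the scanner file it lies below 0.

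mouselincRNA1545+ had the highest sham signal of any member, 126081, with 16.7 in the scanner file and 21.0 in the matrix. It was the 1 member with an outlier flag on sham and was therefore not counted as detected, and the spots around it read 6.13 to 242 on sham. Its minus probe was at 27.8, 2.53 and 3.11.
The precision of a single spot was seen from 35 probes printed in several spots. Over 9 of these that were detected in every spot, the median SD of the log2 fold change between spots was 0.25 in the scanner files and 0.28 in the matrix, with highest values of 0.94 and 0.72. This covers the spread within an array and not that between mice or pools.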

How the data were processed

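The authors hybridised 1 pool per group to 2 one-colour arrays, scanned them and deposited processed signals (background-subtracted intensity, not normalized between arrays) and flags from Agilent Feature Extraction 11.0.1.1. The deposited series matrix holds intensities in the same unit, and has 0 columns without a sample. Spots at or below 0 after subtraction carry small stand-in values (144 members on sham at 3.35 to 6.27, and 118 in the IRI scanner file at 2.53). The sham signals were also scaled over the array by the software (processed over subtracted signal, median 0.932, from 0.831 to 1.65), and those of the IRI scanner file were not (1.00).

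Groups come from the sample titles. Log2 signals of 61194 spots were quantile normalized per version (Python 3.11.15, numpy 2.4.6, pandas 2.3.3, scipy 1.17.1), tested on simulated data. The simulation changed few probes and shifted all spots alike. It does not cover arrays that differ as widely as sham and the IRI scanner file. Alternatives were the 75th percentile, no normalization, quantiles over detected probes, normexp with an offset of 50 (limma 3.58.1, R 4.3.3), other flags, floors and thresholds. The number of arrays limits the precision. Named by rule were members listed with a location in the study, and up to 5 largest rises and falls of detected members per version. The other strand of each was added. The 3 brightest, the widest strand gaps and members past a threshold in both versions brought these to 43. Other members named in the text lie outside these rules and were chosen after their values were seen. Members and lists were chosen with earlier results of these data known. Real time PCR and liver arrays were not analysed here.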

Additional observations from a re-analysis of the deposited data

How the results depend on the processing

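Over the alternatives, 38 of 75 values of the counts and medians stayed within 1.5 times or within the SD between spots, and none of the medians changed sign. In the scanner files, asking for positive and significant spots alone gave 381 detected members, 56 higher, 262 lower and a median of -1.64, and asking for 1 array well above background gave 391 detected, 104 higher and a median of -1.36. Without normalization 56 were higher and 88 lower with a median of -0.33 and 8 loci had opposite strands. Quantiles over detected probes gave 33 higher and a median of -1.40, normexp a median of -1.56, the 75th percentile 2 higher, a ratio of log2 signals 99 lower, and sham signals at or above the median of detected probes 0 higher and 97 lower.

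In the matrix, positive and significant spots gave 122 higher and a median of 0.65, 1 array above background gave 302 detected, 129 higher and 79 lower, and no floor gave 79 lower. The 75th percentile gave 112 higher, 16 lower and a median of 0.80, thresholds of 2 and 0.5 gave 39 and 14, the ratio of log2 signals 2 and 0, and the brighter sham signals 25 and 14. Loci with both strands above background became 146 on sham and 184 in the IRI scanner file with positive and significant spots. The causes were not tested, except that fewer or more probes enter under other flags, floors and signal limits.

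Named members past a threshold changed sign in the scanner files without normalization: mouselincRNA0161- to 0.99, mouselincRNA0366+ to 0.30, mouselincRNA0513+ to 1.89, mouselincRNA0522+ to 0.49 and mouselincRNA0544+ to 1.81. With quantiles over detected probes mouselincRNA0366+ went to 0.43, mouselincRNA0513+ to 0.69 and mouselincRNA0544+ to 0.68. In the matrix mouselincRNA0706+ went to 0.03 without normalization and to 0.30 with scaling to the 75th percentile. Leaving out mouselincRNA0842-, an alternative chosen after seeing the data, gave 73 higher. Bounds without normalization, added after the data had been seen, gave 23 members higher and 36 lower in both versions, against 14 and 19. No paired analysis was possible because each group has 1 array, and a single array limits all values.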
